A study of Homo sapiens with 43 samples.

Results

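In KARPAS422 cells, 206 of 17047 CDK9 regions (1.21%) carried a CDK9 peak in both control libraries and in neither library of cells exposed to CDK-TCIP1. They made up 4.49% of the 4587 regions with a peak in both control libraries. The 206 regions were selected on these 4 peak lists, so their loss is given as a description and supports nothing further. Of the 206, 126 (61.2%) lay within 1 kb of a gene start, on either side. Among them were the starts of FOS, FOSB, EGR1 and DUSP1. In SUDHL5 cells given the compound, 10.2% and 8.74% of the 206 held a CDK9 peak of the same antibody. The shares among all KARPAS422 regions were 31.8% and 31.4%. With a second antibody, ab239364, they were 32.5% and 29.6% of the 206, against 31.7% and 37.4% of all regions. Both treated ab239364 lists held 32.5% of lost regions at starts, against 45% of all regions there. Elsewhere the shares were 7.50% and 16.6%. Of all 17047 regions, 14223 had a KARPAS422 peak of treated replicate 1, which lost regions lack by the rule. These contrasts are therefore not independent of the choice of regions.

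KARPAS422 and SUDHL5 are human cell lines grown from diffuse large B-cell lymphomas. Chromatin immunoprecipitation with sequencing was deposited as 33 peak lists from a series of 43 samples. In KARPAS422, CDK9 was mapped with antibody CST2316S after 2 h of 0.1% DMSO (2 libraries) or of 30 nM CDK-TCIP1 in the same DMSO content (2 libraries). In SUDHL5, CDK9 was mapped after 2 h of DMSO or of 30 nM CDK-TCIP1 with antibodies CST2316S and ab239364 (2 libraries per group, 8 lists). Total RNA polymerase II (Pol II, 3 libraries per group) and its forms phosphorylated on serine 5 (Ser5P) or serine 2 (Ser2P) of the C-terminal repeats (2 libraries per group each) were mapped in SUDHL5 after 4 h of DMSO and after 2 h or 4 h of 30 nM CDK-TCIP1. The 2 h and 4 h comparisons of polymerase share the 4 h DMSO lists. The labels do not say whether replicates came from separate cultures, so spreads and p-values may be technical only.

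CDK9 is the kinase subunit of P-TEFb, which with cyclin T releases paused polymerase from the stretch just past the start of a gene into productive elongation. BCL6 is a repressor that germinal-centre B cells and lymphomas derived from them rely on, and CDK-TCIP1 binds both proteins so that CDK9 is brought to BCL6-bound chromatin. Immediate-early genes such as FOS and EGR1 carry paused polymerase at rest and are switched on within minutes of a stimulus through release of that pause.

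Peaks of the 4 KARPAS422 lists were merged where they shared at least 1 bp, on chromosomes 1 to 22 and X. A region counted as present in a list if a peak of that list overlapped it. Coordinates are hg38. Each peak comes with the fold enrichment and the −log10 q that the authors' peak caller gave it. The control behind the fold is not stated, and neither value is scaled between libraries. Both therefore serve here only to rank peaks within a list. The weakest peak of each list had a −log10 q between 1.301 and 1.376, so a region without a peak is one with no call, not one shown to be empty. Sequencing depth is unknown. In bulk chromatin, fewer cells with CDK9 at a site and less CDK9 per cell cannot be told apart.

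The DMSO lists of KARPAS422 held 6689 and 7804 peaks and the treated lists 14554 and 10297. The means were 7247 ± 788 (SD, n = 2) and 12426 ± 3010 (n = 2), a 1.69-fold ratio of geometric means. Both treated lists were longer than both DMSO lists. An exact two-sided permutation test of log2 list length gave p = 0.333, the smallest that 2 against 2 lists allow. Between 5 and 6 of 6 B-cell marker genes had a CDK9 peak within 1 kb in each KARPAS422 list. None of 3 myeloid and 4 other-tissue markers had one, but 2 of 3 T-cell markers, CD3D and CD3E, had one in all 4 lists. None of the lost regions lay at a gene of the T-cell list.

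Promoter sequences of leading members show where the lost peaks sat. Each window below runs from 250 bases before an annotated gene start to 50 bases after it, from RefSeq for GRCh38, read in the direction of the gene. Capitals mark the bases inside the lost CDK9 region, and the gene start is 50 bases from the right end. FOSB, PRMT5, PPAN and ISOC2 are among the 15 best-ranked members, and FOS was added after its values were seen because its lost region spans the whole window.
FOSB: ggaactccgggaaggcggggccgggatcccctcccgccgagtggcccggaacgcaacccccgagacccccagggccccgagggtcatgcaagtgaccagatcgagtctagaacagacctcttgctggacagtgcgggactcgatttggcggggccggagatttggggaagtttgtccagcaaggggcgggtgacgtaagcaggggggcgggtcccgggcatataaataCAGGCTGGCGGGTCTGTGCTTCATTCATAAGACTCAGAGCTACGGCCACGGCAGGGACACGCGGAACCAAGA
FOS: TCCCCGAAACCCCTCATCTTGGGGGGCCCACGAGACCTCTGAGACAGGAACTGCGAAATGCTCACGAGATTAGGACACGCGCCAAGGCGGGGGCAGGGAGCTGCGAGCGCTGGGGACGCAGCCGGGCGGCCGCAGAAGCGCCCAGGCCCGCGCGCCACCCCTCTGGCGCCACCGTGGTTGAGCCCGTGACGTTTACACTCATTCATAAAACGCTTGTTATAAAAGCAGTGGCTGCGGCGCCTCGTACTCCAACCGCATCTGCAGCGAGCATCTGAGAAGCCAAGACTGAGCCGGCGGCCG
PRMT5: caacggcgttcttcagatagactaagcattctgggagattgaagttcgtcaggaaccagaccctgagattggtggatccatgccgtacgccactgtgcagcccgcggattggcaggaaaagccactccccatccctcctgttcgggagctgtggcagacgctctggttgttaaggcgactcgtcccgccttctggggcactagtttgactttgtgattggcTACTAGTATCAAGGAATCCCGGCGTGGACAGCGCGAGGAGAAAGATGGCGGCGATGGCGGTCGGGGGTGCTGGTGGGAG
PPAN: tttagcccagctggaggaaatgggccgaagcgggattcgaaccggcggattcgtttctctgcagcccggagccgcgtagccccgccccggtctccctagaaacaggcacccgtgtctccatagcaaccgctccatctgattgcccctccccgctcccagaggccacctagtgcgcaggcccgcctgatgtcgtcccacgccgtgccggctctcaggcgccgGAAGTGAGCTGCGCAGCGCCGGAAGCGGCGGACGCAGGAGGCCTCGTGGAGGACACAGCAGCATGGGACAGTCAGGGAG
ISOC2: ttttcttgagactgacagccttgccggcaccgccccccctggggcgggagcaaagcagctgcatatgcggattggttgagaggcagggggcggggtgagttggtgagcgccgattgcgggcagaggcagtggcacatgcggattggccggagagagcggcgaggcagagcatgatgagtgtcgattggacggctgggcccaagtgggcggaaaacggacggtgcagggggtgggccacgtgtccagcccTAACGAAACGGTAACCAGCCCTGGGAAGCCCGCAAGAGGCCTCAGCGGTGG

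The windows are, in this order, chr19:45467746-45468045 (plus strand), chr14:75278578-75278877 (plus), chr14:22929327-22929626 (minus), chr19:10106112-10106411 (plus) and chr19:55461593-55461892 (minus). At FOSB the lost region covered only the last 72 bases of the window, at PRMT5 79, at PPAN 79 and at ISOC2 51, whereas at FOS it covered all 300. The lost region thus began close to the start and ran into the gene at 4 of these 5 windows, a count that depends on the windows chosen. Other windows of best-ranked members were not printed. At PRMT5-DT and ANGPTL6, which share the lost regions of PRMT5 and PPAN, only the first 47 and 108 bases were covered, upstream of the start. At RUVBL1 all 300 were covered. At NLE1 and APRT the last 88 and 70 were covered, as in the 4 windows. FOSB and FOS both encode partners of the AP-1 transcription factor, PRMT5 a protein arginine methyltransferase, PPAN a factor of ribosome assembly and ISOC2 a protein of the isochorismatase family.

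The members varied in position. Of the 206 lost regions, 126 (61.2%) lay within 1 kb of an annotated gene start, 7 within 1 kb of another gene end, 57 (27.7%) inside a gene and 16 (7.77%) between genes. The share at a start was 54.4% among the 3938 regions present in all 4 lists and 37.9% among all regions. For 4159 protein-coding genes, those of chromosome 8 included, no strand was at hand and either end was taken as a possible start. Counting only starts of known strand, 113 lost regions (54.9%) lay within 1 kb, against 47.8% of the regions in all 4 lists. With the rule applied without DMSO replicate 1 or without DMSO replicate 2, the share at a start was 39.6% or 34.1%. The latter was below the 37.9% of all regions in the main setting, a share not computed anew. The start itself was inside 43 lost regions (20.9%), near the 23.7% of all regions, and inside 46.6% of those in all 4 lists. The lost regions were also narrower than those in all 4 lists, with a median width of 848.5 bp against 2330 bp. All regions had a median of 872 bp. The part of width in these shares was not tested.

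The summit is the point of highest signal in a peak. In DMSO replicate 1, 110 lost regions had their summit within 1 kb of a start of known strand, at a median of 248.5 bp downstream, and 83.6% of these summits lay at least 100 bp downstream. In DMSO replicate 2 there were 108 such summits, at a median of 285.5 bp, with 85.2% at least 100 bp downstream. For regions in all 4 lists the same lists gave medians of 219 and 220 bp and shares of 71.3% and 71.0%. The 443 regions that kept a peak in exactly 1 treated list were between these, at 76.5% and 78.7%. Lost summits upstream of a start by 100 bp or more made up 12.7% and 10.2%, against 18.4% and 19.2% in all 4 lists. The 5 lost regions on chromosome 8 were not placed in this way.

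**Figure D1:**
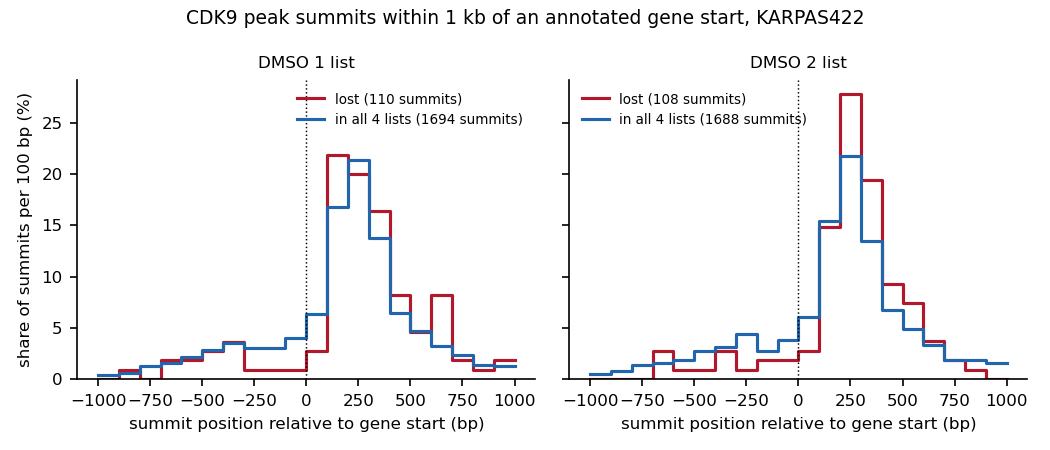
Position of CDK9 peak summits relative to the nearest annotated gene start in the 2 KARPAS422 DMSO lists, in bins of 100 bp (x axis, bp, downstream positive; y axis, share of the summits within 1 kb, %). Lost regions (red) have 69.1% and 72.2% of these summits between 50 and 500 bp downstream, against 62.2% and 60.4% for regions in all 4 lists (blue).

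The lost peaks were of low to middle strength, values that the rule used in part. The median −log10 q of lost regions was 5.77 in DMSO replicate 1 (range 1.36 to 34.2) and 5.95 in replicate 2 (1.40 to 30.8). Regions in all 4 lists had medians of 11.2 and 13.2. Median fold enrichments were 3.20 and 3.97 for lost regions and 3.87 and 5.13 for regions in all 4 lists. When the 4587 regions of both DMSO lists were divided by strength into 4 groups of equal size, 112 (9.76%) of the weakest group were lost, then 68 (5.93%), 22 (1.92%) and 4 (0.349%) of the strongest. Just inside the rule, the weakest members were PPFIBP2 (−log10 q 1.36 and 3.14), CCDC138 (5.19 and 1.40) and the ZBTB11 start (1.42 and 1.75). Just outside it, OXLD1/CCDC137, LOC105375196 and TMEM259 were kept by a single peak of treated replicate 1 with −log10 q of 1.42, 1.46 and 1.46. Of the 443 regions kept in 1 treated list, 402 were kept by treated replicate 1 alone and 41 by treated replicate 2 alone. Without treated replicate 1 the lost set would hold 647 regions, without DMSO replicate 1 it would hold 1118 and without DMSO replicate 2 it would hold 857.

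**Figure D2:**
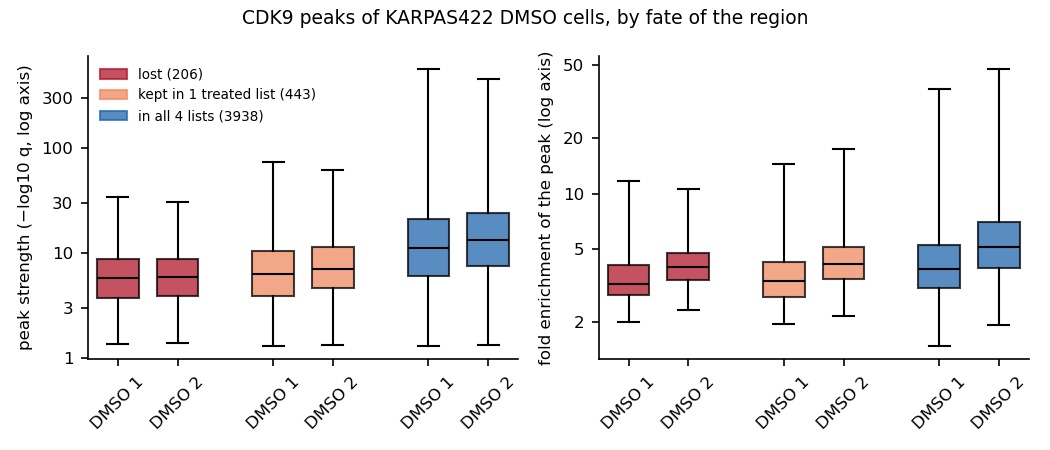
Strength of the CDK9 peaks in the 2 KARPAS422 DMSO lists (left, −log10 q; right, fold enrichment; both log axes) for regions lost, kept in 1 treated list or present in all 4 lists. Boxes show the quartiles and median and whiskers the lowest and highest region; the medians of lost regions (5.77 and 5.95) lie below those of regions in all 4 lists (11.2 and 13.2).

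Not every lost region was far from CDK9 in treated cells. A peak of at least 1 treated list lay within 500 bp of 22 of the 206, and within 5 kb of 69. In contrast, 62 lost regions had no peak of either treated list within 50 kb. Within 5 kb of 47 lost regions there was a region held by both treated lists. At the 126 gene starts the nearest peak was at a median of 23.6 kb in treated replicate 1 and 60.6 kb in replicate 2.

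The highest-ranked loss lay inside GAS6 and its antisense transcript GAS6-AS1 on chromosome 13 (113829488 to 113835662). GAS6 encodes the ligand of the TAM family of receptor kinases. This region was 6175 bp wide, the widest member, with 11.7-fold and 10.5-fold enrichment in DMSO replicates 1 and 2. The nearest treated peaks were 78237 bp away in replicate 1 and 376624 bp away in replicate 2. Another 4 lost regions lay beside it, so that 5 members fell between 113815613 and 113850041, from the TMEM255B end of GAS6-AS1 into GAS6. None of the 8 SUDHL5 CDK9 lists had a peak at the leading region, and 3 of the 21 polymerase lists did, all of them Ser2P.

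Other wide or intragenic losses were a 3800 bp region inside MKI67, the gene of the proliferation antigen Ki-67 (chromosome 10, 128103151 to 128106950), with 7.76-fold and 10.6-fold enrichment. It was one of 5 members that gained a CST2316S peak in SUDHL5, where both treated and neither DMSO list held one. Regions inside CCDC73 (9.04-fold and 6.66-fold) and METTL15 (5.44-fold and 7.41-fold) had no peak in any of the 29 SUDHL5 lists. In treated KARPAS422 cells, peaks lay 680 and 721 bp from the CCDC73 region and 95577 and 158278 bp from the METTL15 region. A region inside SIN3A, the gene of a corepressor scaffold, had its summits at -1871 and -1867 bp from the nearest listed start and was enriched 3.20-fold and 6.11-fold.

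Among the 15 best-ranked members, those at gene starts included the following. PRMT5 was enriched 3.49-fold and 5.34-fold with summits 87 and 171 bp downstream of its start. PPAN, which shares its region with the divergent start of ANGPTL6, was enriched 3.38-fold and 6.32-fold, and a peak of treated replicate 1 lay 240 bp away. NLE1, a factor in assembly of the large ribosomal subunit, reached 3.58-fold and 7.99-fold, and APRT, the adenine salvage enzyme, 3.91-fold and 4.85-fold. RUVBL1, an ATPase of chromatin remodelling complexes, reached 3.79-fold and 4.94-fold, and the ubiquitin ligase gene RNF126 4.87-fold and 5.50-fold. The nearest treated peaks were over 5 kb from all of these members other than PPAN.

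Immediate-early genes had the highest share of lost regions among the gene lists. Of 8550 genes with a region within 1 kb of a start or either end, 205 (2.40%) had a lost region, and 184 of 7642 genes (2.41%) had one when only starts were used. Among the 27 listed immediate-early genes, 19 had a region and 7 (36.8%) had a lost one. The count was 4 when peaks of every list needed a −log10 q of at least 5, and 4 when this limit held for DMSO peaks alone. The 7 were FOS, FOSB and JUN, the AP-1 subunits, EGR1 and NR4A1, inducible transcription factors, DUSP1, the phosphatase that switches off MAP kinases, and ZFP36L2, an RNA-binding protein of mRNA decay. All of these but JUN, 6 genes, had a CDK9 peak within 1 kb in both DMSO lists and no treated peak within 1 kb. The list was drawn up with earlier results on these samples known, and its count has no test here.

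FOSB (chromosome 19, 45467974 to 45469205) was the second-ranked member, at 4.54-fold in DMSO replicate 1 and 9.19-fold in replicate 2, with summits 319 and 288 bp downstream and no treated peak within 23186 bp. FOS (chromosome 14, 75278247 to 75279795) was enriched 2.90-fold and 3.59-fold, with summits at 266 and 265 bp and a peak of treated replicate 1 at 747 bp. DUSP1 (chromosome 5, 172770488 to 172771315) reached 3.74-fold and 3.95-fold. ZFP36L2 (chromosome 2, 43225039 to 43227633) reached 5.26-fold and 6.44-fold in a region that also touches the start of LINC01126. EGR1 (chromosome 5, 138465592 to 138466486) was among the weaker members at 2.83-fold and 2.87-fold, with summits at 371 and 454 bp and the nearest treated peaks 75518 and 75992 bp away. NR4A1 was enriched 4.11-fold and 3.23-fold about 1 kb upstream of a listed start. The JUN region, at 5.69-fold and 3.07-fold, had treated peaks 367 and 428 bp to its side, and JUN therefore still had CDK9 peaks within 1 kb in treated cells. At JUN, MYC, JUNB, JUND, DUSP4, DUSP6, NR4A3 and ZFP36L1, 8 genes, a CDK9 peak was present within 1 kb in all 4 KARPAS422 lists. DUSP2 was the single listed immediate-early gene with peaks in the 2 treated lists and none in DMSO.

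**Figure D3:**
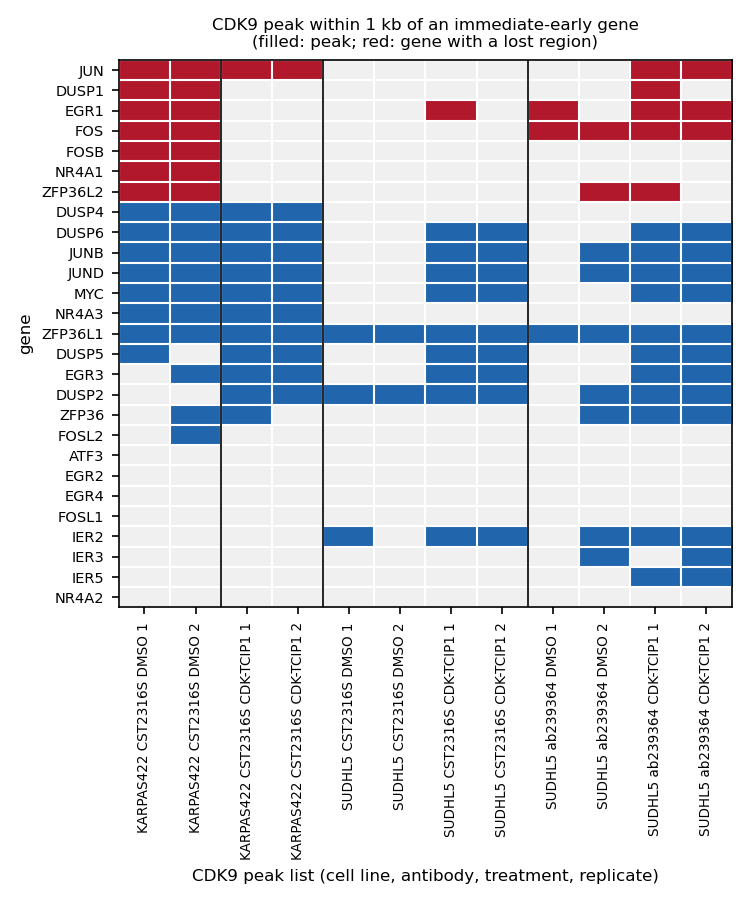
CDK9 peaks within 1 kb of either end or a start of the 27 immediate-early genes (rows) in the 4 KARPAS422 and 8 SUDHL5 CDK9 lists (columns). A filled cell marks a peak, and red rows are the 7 genes with a lost region: 6 of them are filled in both KARPAS422 DMSO lists and empty in both treated lists, and JUN is filled in all 4.

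In SUDHL5 the lost regions of 6 of these 7 genes had polymerase peaks in most lists and CDK9 peaks in at most 4 of 8 lists. FOSB had a peak in all 21 polymerase lists and in none of the 8 CDK9 lists. Its fold enrichments for Ser5P were 31.6 and 28.8 in DMSO, 51.0 and 39.3 at 2 h and 38.8 and 33.5 at 4 h, at or above the 98.9th percentile of each list. These folds are not scaled between libraries, so they cannot be compared between treatments. FOS had a peak in 20 of 21 polymerase lists and in all 4 ab239364 lists but no CST2316S list. EGR1 had one in 21 of 21 polymerase lists, at the 99.9th percentile or higher of every Ser2P list, and in 4 of 8 CDK9 lists. JUN and ZFP36L2 each had a peak in 20 polymerase and 2 CDK9 lists, DUSP1 in 16 and 1, and NR4A1 in 1 and 0. DUSP1 was the only lost region with a Pol II peak in all 3 lists at 2 h of CDK-TCIP1 and in none of the 3 DMSO lists.

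Other fixed lists held fewer. In the MYC network and growth list 3 of 14 genes with a region had a lost one: MNT, a repressor that competes with MYC for its partner MAX, ODC1, the first enzyme of polyamine synthesis, and CAD, which starts pyrimidine synthesis. The 2 MNT regions were among 3 lost regions within 100 kb on chromosome 17. For translation and tRNA genes it was 3 of 28: EIF3B, EIF4A2 and EEF1A1, the last 2 at a gene end away from a listed start. For heat shock chaperones it was 1 of 18, BAG1. For BCL6 targets it was 1 of 13, PTPN6, the gene of the phosphatase SHP-1, whose lost region was nearest to LOC105369634 and weak (2.14-fold and 2.87-fold). No lost region was found within 1 kb of a start or end of 18 B-cell identity factors, 16 B-cell receptor and surface genes, 14 pro-apoptotic genes, 8 anti-apoptotic genes, 11 cell-cycle arrest genes, 19 P-TEFb, 7SK and elongation genes, 21 Pol II and Mediator genes, 30 splicing genes, 24 proteasome genes and 14 BCL6 corepressor genes with a region. Against the background of 2.40%, a count of 0 in lists this short sets none of them apart. Farther inside genes of these lists, lost regions lay in SIN3A, a BCL6 corepressor described above, in CDK12, a kinase of elongating polymerase, and in FAS, the death receptor gene, where ACTA2 overlaps. MED31, a Mediator subunit gene, had no lost region but had CDK9 peaks within 1 kb in both DMSO lists and in neither treated list. These 4 genes were chosen after their values were seen.

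Among families added after the values were seen, small nucleolar RNA host genes had lost regions at 3 of 23 (SNHG12, SNHG16 and SNHG19). These hosts are spliced RNAs whose introns release the guide RNAs of ribosomal RNA modification. A small nucleolar RNA gene lay inside 4 lost regions (1.94%), against 0.635% of the regions in all 4 lists: SNORD60 in SNHG19, SNORA16A in SNHG12, SNORD1C in SNHG16 and SNORA13 in EPB41L4A-AS1. SNHG12 had peaks in all 21 polymerase lists of SUDHL5. Of 46 histone genes with a region 2, H2AC6 and H2BC4, shared 1 lost region. Of 159 zinc finger (ZNF) genes 5 had a lost region.

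The lost regions were spread over all chromosomes used, with the densest sets on chromosomes 19 and 16. Chromosome 19 held 21 (11.9% of its regions in both DMSO lists), among them FOSB, PPAN, ISOC2, RNF126, DAZAP1 and ATP13A1. Chromosome 16 held 16 (10.3%), chromosome 17 held 14 (6.67%), and chromosome 1 held 8 (2.02%). Protein-coding genes with a lost region at a start had a median length of 22.6 kb, against 34.8 kb for genes with a region in all 4 lists and 32.4 kb for genes with any region. Genes under 5 kb made up 15.03% of the first, 8.98% of the second and 8.70% of the last. Over all protein-coding genes of the table the median was 24.2 kb and 15.8% were under 5 kb, close to the genes with a lost region. Of 123 lost regions at a start outside chromosome 8, 42 (34.1%) had starts on both strands within reach, against 29.4% of regions in all 4 lists.

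Promoter windows that overlapped a lost region were rich in G and C. There were 85 such windows, with a median GC content of 67.0%, against 64.3% for 2867 windows overlapping regions in all 4 lists and 58.7% for all 34789 windows. In all, 15 short motifs were searched on both strands of the 300-base windows. The SP/KLF box GGGCGG was in 68 (80.0%) of the lost windows, 63.3% of the windows in all 4 lists and 44.9% of all windows. The YY1 motif AAGATGGCG was in 11 (12.9%), 5.16% and 1.76%. The ETS motif CCGGAAG was in 22.4%, 17.8% and 10.2%, and the E-box CACGTG in 16.5%, 11.1% and 7.24%. The cAMP response motif TGACGTCA was in 7.06%, 3.35% and 1.84%. Other motifs had lower shares in the lost windows than in those of regions in all 4 lists. The NFY motif CCAAT was in 25.9% against 32.6%, the IRF motif GAAANNGAA in 1.18% against 7.64% and the NRF1 motif GCGCATGCG in 1.18% against 2.90%. The AP-1 motif TGANTCA was in 4.71% against 5.41%, TATAAA in 5.88% against 7.15% and the RUNX motif TGTGGT in 9.41% against 10.5%. The PU.1 motif GAGGAAGT and the octamer ATTTGCAT were in none, against 3.94% and 2.27%. The BCL6 motif TTCCTAGAA was in none of the 85 and in 0.105% of the windows in all 4 lists, and the looser TTCNNNGAA, which contains it, was in none and in 5.82%. Divergent genes share sequence between their windows, so these windows are not independent. Of the 4 windows printed above other than FOS, GGGCGG was in FOSB, PPAN and ISOC2, CCGGAAG in PPAN, CACGTG in ISOC2 and AAGATGGCG in PRMT5. Motifs with lower shares in lost windows were there too, TATAAA in FOSB and CCAAT in PRMT5 and ISOC2.

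None of the SUDHL5 lists entered the rule. The regions in all 4 lists, however, were chosen for treated CST2316S peaks in KARPAS422, and lost regions for lacking them. Of all 17047 regions, 14223 held a peak of treated replicate 1 and 9345 one of treated replicate 2. Contrasts of lost regions with either set are therefore not independent of that choice. Lost regions were also narrower, at a median of 848.5 bp against 2330 bp in all 4 lists and 872 bp for all regions. The part of width in the SUDHL5 shares was not tested. With CST2316S, the antibody used in KARPAS422, 5 and 6 of the 206 lost regions had a CDK9 peak in the DMSO lists and 21 and 18 in the treated lists. The treated shares were 10.2% and 8.74%. Among all KARPAS422 regions they were 31.8% and 31.4%, and among regions in all 4 lists 62.4% and 61.4%. With ab239364, 9 and 40 lost regions had a peak in the DMSO lists and 67 and 61 in the treated lists. Those treated shares, 32.5% and 29.6%, compare with 31.7% and 37.4% among all regions and 64.0% and 71.8% among regions in all 4 lists. Both treated lists held 10 of the lost regions (4.85%) with CST2316S and 47 (22.8%) with ab239364, against 27.1% and 27.4% of all regions. Within each place the lost regions had lower shares than all regions with either antibody. At gene starts the shares were 3.97% against 25.7% with CST2316S and 32.5% against 45% with ab239364, and elsewhere 6.25% against 27.9% and 7.50% against 16.6%. No test of these differences was made. With the rule applied without treated replicate 1 of KARPAS422, the CST2316S share was 16.2%. The ab239364 share was 12.1% without DMSO replicate 1 and 10.97% without DMSO replicate 2. Without treated replicate 1 it was 31.2%, above the 27.4% of all regions in the main setting. Also above these were 32.2% with DMSO peaks at a −log10 q of at least 5 and 38.0% with equal numbers of top peaks. The CST2316S share was also 7.60% without DMSO replicate 1.

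The CST2316S shares are given next by the strength of the KARPAS422 peak, with the same limits of choice and width. Of the lost regions in the weakest of the 4 strength groups, 5 of 112 (4.46%) had a peak in both treated CST2316S lists of SUDHL5, against 42.3% of regions in all 4 lists in that group. In the next group it was 3 of 68 (4.41%) against 46.7%, and in the third 1 of 22 (4.55%) against 54.1%. In the strongest group it was 1 of 4 (25.0%) against 76.6%. At gene starts alone the shares were 1.69% and 33.9% in the weakest group and 6.12% and 35.8% in the next. With ab239364 at gene starts they were 20.3% and 53.7%, then 42.9% and 62.7%.

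No lost region had a CDK9 peak in both SUDHL5 DMSO lists and neither treated list, with either antibody. The background was 0% of all 17047 regions for each antibody, so these counts read as the background. The opposite pattern, both treated lists and neither DMSO list, was found at 5 lost regions (2.43%) with CST2316S, against a background of 20.8%, and at 20 (9.71%) with ab239364, against 15.1%. Among the 5 were the MKI67 region, the TRNT1 start, a region near STEAP1B and the PTPN6 region. Among the 20 were RUVBL1, DAZAP1, ATP13A1, CCDC88C, TRNT1, JUN, BAG1, GPI, TKT and ATF4, the last a transcription factor of the amino acid response. TRNT1, which adds the CCA end to tRNAs, was in both sets.

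Ser5P and Ser2P, but not total Pol II, had peaks at most of the lost regions that lay at gene starts. Of these 126, both DMSO lists held 85 (67.5%) for Ser5P and 70 (55.6%) for Ser2P. Among all regions at starts the shares were 55.7% and 46.2%. For Pol II, no DMSO list had a peak at 78 (61.9%), against 67.8% of all regions at starts. For Ser5P in DMSO, 123 and 103 of the 206 (59.7% and 50.0%) had a peak, against 38.4% and 31.9% of all regions and 69.0% and 61.6% of regions in all 4 lists. Both Ser5P DMSO lists held 48.5% of the lost regions, and 23.7% or 22.5% when the rule was applied without DMSO replicate 1 or 2 of KARPAS422. Both values were below the 29.4% of all regions in the main setting, a share that was not computed anew without a list. For Ser2P in DMSO the counts were 118 and 92 (57.3% and 44.7%). The shares were 33.1% and 26.6% of all regions and 58.3% and 51.2% of regions in all 4 lists. For Pol II in DMSO the counts were 10, 43 and 34, in lists of 710, 3229 and 2028 peaks. These were 4.85%, 20.9% and 16.5% of the lost regions, against 3.08%, 12.7% and 8.68% of all regions. The polymerase shares of lost regions were between those of all regions and of regions in all 4 lists in every one of the 21 polymerase lists. Those of CST2316S were below all regions in all 4 lists of that antibody.

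**Figure D4:**
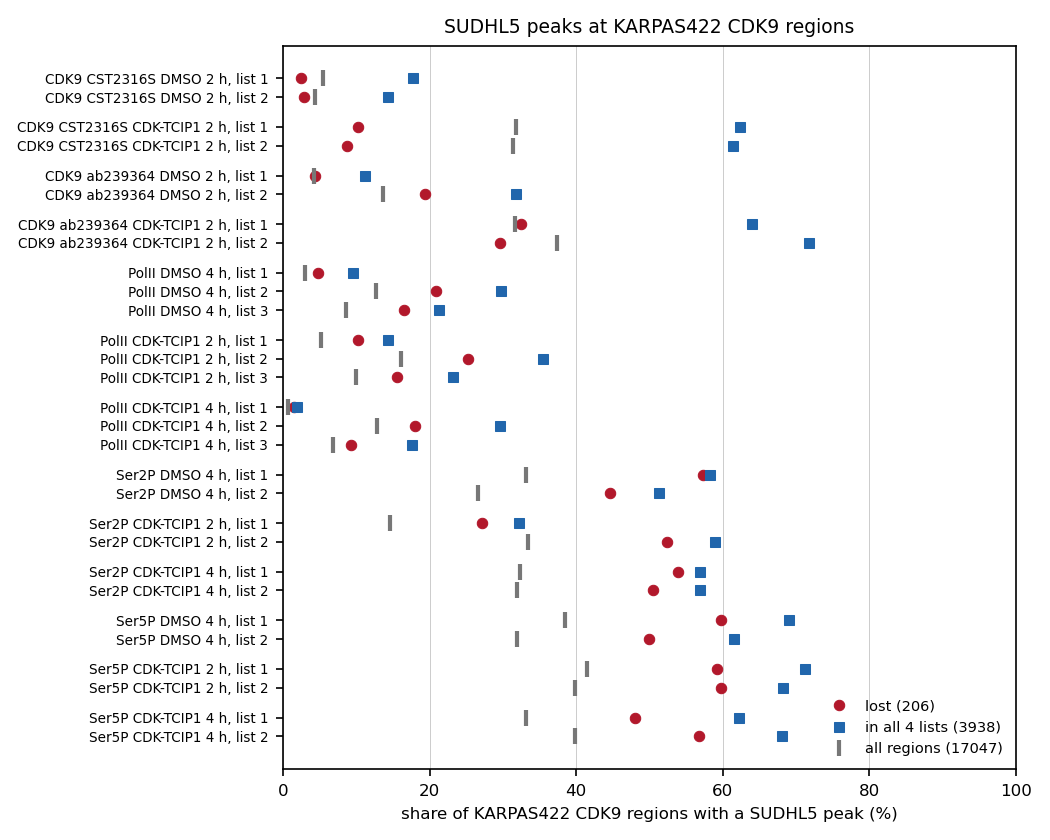
Share of KARPAS422 CDK9 regions (x axis, %) with a peak in each of the 29 SUDHL5 lists (rows), for the 206 lost regions (red circles), the 3938 regions in all 4 KARPAS422 lists (blue squares) and all 17047 regions (grey ticks). Lost regions lie left of the grey tick in the CST2316S lists and between tick and square in the polymerase lists.

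Few lost regions differed between DMSO and CDK-TCIP1 in polymerase calls. Gained means every treated and no DMSO list, and the background is the share over all 17047 regions. For Ser5P, 6 of the 206 (2.91%, background 2.61%) were gained at 2 h and 3 (1.46%, background 0.516%) were lost. At 4 h these counts were 2 (0.971%, background 1.33%) and 6 (2.91%, background 0.933%). For Ser2P they were 0 (background 0.246%) and 3 (1.46%, background 1.50%) at 2 h. At 4 h they were 5 (2.43%, background 1.88%) and 5 (2.43%, background 0.933%). For Pol II they were 1 (0.485%, background 0.147%) and 0 (background 0.00587%) at 2 h. At 4 h they were 0 (background 0.00587%) and 0 (background 0.0293%). No test of these differences was made. Gained Ser5P regions included PRR13 and TIPARP at both times. PRMT5 and GPI were among the 5 with gained Ser2P at 4 h, and the leading GAS6 region and ISOC2 were among the 5 with lost Ser2P at 4 h. The 2 h and 4 h counts share their DMSO lists.

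Taking all 29 SUDHL5 lists, the lost regions fell into 3 sets. CDK9 was found in at least 1 list at 98 (47.6%), polymerase without CDK9 at 60 (29.1%) and nothing at 48 (23.3%). Among all 17047 regions these shares were 49.9%, 12.6% and 37.5%, so the CDK9 share of lost regions was near that of all regions. Among regions in all 4 KARPAS422 lists they were 81.3%, 5.51% and 13.2%. At gene starts, 78 of 126 lost regions had CDK9, 43 (34.1%) had polymerase alone and 5 had nothing, whereas polymerase alone was found at 6.67% of the regions in all 4 lists at starts. Inside genes, 30 of 57 lost regions (52.6%) had no SUDHL5 peak at all, against 24.3% of the regions in all 4 lists there, and between genes 12 of 16 (75%), against 28.0%. The region with most SUDHL5 peaks, at SNHG19, RAB26 and TRAF7, had a peak in 28 of 29 lists, all 8 CDK9 lists included. The GCSH and CD55 starts, with none in SUDHL5, were enriched 3.59-fold and 6.02-fold and 3.15-fold and 5.12-fold in KARPAS422.

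**Figure D5:**
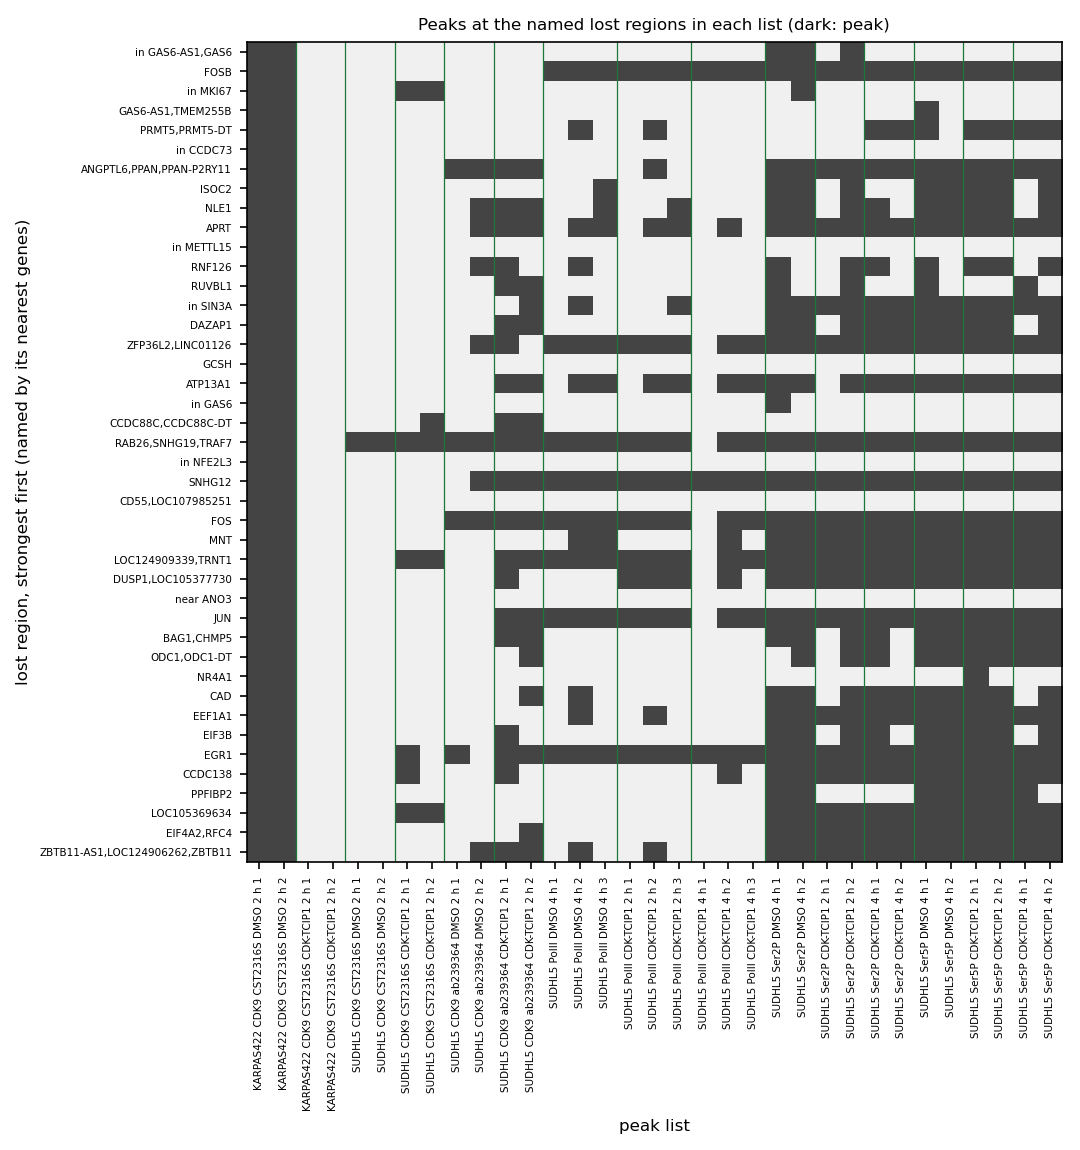
Peaks at named lost regions (rows, strongest first, labelled by nearby genes) in the 4 KARPAS422 and 29 SUDHL5 lists (columns; dark cells mark a peak). By the rule, the first 2 columns are filled and the next 2 empty; FOSB, SNHG12 and EGR1 are filled in all 21 polymerase columns, and CCDC73, METTL15, GCSH, NFE2L3, CD55 and ANO3 are empty throughout SUDHL5.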

How the data were processed

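Peak lists of chromatin immunoprecipitation with sequencing were used for 33 samples; the 10 inputs have no list here. Per the submitters' processing notes, the tools include Bowtie2, Picard and MACS2 and the builds are hg38 and dm6. Their versions, and the control behind each peak call, are not stated in the sources. The authors deposited for each peak a fold enrichment (a ratio), a −log10 p, a −log10 q and a summit position in bp, per the file layout. Of 286536 peaks, 25 on other contigs were left out. Per the labels' protocols, CDK9 samples contained spiked-in fly chromatin; no value scaled to it was used. Read totals are unknown, so no counting interval was given for depth.

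Regions, gene distances (1 kb) and motifs were computed in Python 3.11.15 with numpy 2.4.6, pandas 2.3.3 and scipy 1.17.1 against a RefSeq table for GRCh38.p14, the build of hg38. The code of the region calls was checked on simulated lists with planted losses, built from the same merged regions. Correct calls were required only where every peak was detected. The check therefore does not show how many real regions are called lost through missed peaks. The 4 strength groups use the mean percentile of −log10 q in the 2 DMSO lists. The members, gene lists and rules were chosen with earlier results of these data known. Named regions were the 15 best by mean rank, the 5 widest, the 5 with most and 5 best with no SUDHL5 peaks, members of gene lists, regions also changed in SUDHL5 CDK9, and 3 on each side of the rule. Alternatives were a −log10 q of at least 5, equal numbers of top peaks, 50% cover, summits, a 500 bp gap, a 2.5 kb window and leaving out each list. The titles and the protocol give the digits of CST2316S in a different order, and some deposited names give 0 h where the titles give 2 h; the titles were followed. Results for some genes under the naming rule are not reported here.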

Additional observations from a re-analysis of the deposited data

Results flagged for a closer look

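With CST2316S, the treated SUDHL5 lists held on average 14 more of the 206 lost regions than the DMSO lists (21 and 18 against 5 and 6). With ab239364 the average difference was 39.5 regions (67 and 61 against 9 and 40). In SUDHL5 every treated list thus held more of these regions than every DMSO list with either antibody, opposite to KARPAS422, where the direction was fixed by the choice of regions. The difference between the lines was not tested. The treated SUDHL5 lists were also longer as a whole (9262 to 11148 peaks against 915 to 3508), and the part of list length in these counts was not tested.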

How the results depend on the processing

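The number of lost regions was 206; it became 90 when DMSO peaks needed a −log10 q of at least 5 against treated peaks at any q, and 692 with 6689 top peaks of every list. It ranged from 250 to 1118 when 1 list was left out. The share at gene starts was 61.2%; it was 71.3% at a −log10 q of at least 5 in every list, 68.9% with that limit on DMSO peaks alone, and 34.1% to 62.4% with 1 list left out. The share with CST2316S in both treated SUDHL5 lists was 4.85% (14.02% with equal top peaks, 5.20% to 16.2% leaving out 1 list). For ab239364 it was 22.8% (32.2% with strict DMSO peaks, 38.0% with equal top peaks, 16.5% with 50% cover and 16.5% with summits, 10.97% to 31.2% leaving out 1 list). For Ser5P in both DMSO lists it was 48.5% (60.0% with strict DMSO peaks, 36.0% with 50% cover, 23.8% with summits, 22.5% to 47.2% leaving out 1 list). The CST2316S share in both DMSO lists, 2.43%, stayed between 0.971% and 3.33% under all alternatives run. The count of 7 immediate-early genes was 4 with −log10 q of at least 5 in every list and 4 with strict DMSO peaks alone, and 5 to 8 otherwise. The median summit offset, 267 bp as the mean of both lists, was 240 and 231 bp without DMSO replicates 1 and 2. The cause of these differences was not tested. The log2 ratio of list lengths was 0.76 and ranged from 0.51 to 1.01 with 1 list left out. Replicate numbers are shared by the groups, but nothing in the labels pairs the samples; permuting within numbers (a replicate block) left the ratio at 0.76 with exact p = 0.5, the smallest that 2 pairs allow. Some shares changed side against all regions, whose shares are those of the main setting. At gene starts 34.1% without DMSO replicate 2 was below 37.9%. For Ser5P 23.7% and 22.5% without DMSO replicate 1 or 2, and 23.8% with summits, were below 29.4%. For ab239364 31.2% without treated replicate 1, 32.2% with strict DMSO peaks and 38.0% with equal top peaks were above 27.4%. For CST2316S in both DMSO lists, 3.33% with strict DMSO peaks was above 3.29%.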
